A study of Homo sapiens with 4 samples.

Results

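The MBNL, CELF, RBFOX and QKI proteins bind RNA and switch the splicing of alternative exons. The genes described are MBNL1, MBNL2, MBNL3, CELF1, CELF2, RBFOX2 and QKI, 7 of 63677 genes counted, and each matched 1 Ensembl ID. They were chosen on the measured rise of MBNL2 in this same comparison, as its relatives and the regulators known to share its exons, so their own fold changes are given as descriptions, without p-values. Total RNA depleted of ribosomal RNA was sequenced from H929 cells, an established human multiple myeloma line of malignant plasma cells. The cells had been transduced with an shRNA against ILF2 (2 libraries) or with a non-silencing shRNA (2 libraries). ILF2 encodes a protein of RNA-binding complexes that act on structured RNA. The submitters call the replicates independent. The labels do not say whether they come from separate transductions or whether both ILF2 libraries carry the same hairpin. The spread reported may therefore be partly technical, and effects of the hairpin on other genes cannot be told apart from effects of ILF2 loss.

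MBNL proteins carry zinc fingers that read short motifs of a pyrimidine, G, C and a pyrimidine, and they are best known for driving the change from fetal to adult splicing in muscle and heart. In myotonic dystrophy, expanded repeats in DMPK or CNBP transcripts trap MBNL proteins, and fetal exons return. CELF1 and CELF2 often act on the same exons in the opposite direction, RBFOX2 binds GCAUG beside exons, and QKI, a STAR-family protein, binds ACUAA-like motifs. RBFOX proteins work within a large assembly named LASR, of which the ILF2 protein is a subunit. In bulk RNA, fewer cells with a transcript and less of it per cell cannot be told apart. The files hold 1 count per gene, summed over all exons, so they show how much RNA of each regulator was present and not which exons were used.

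The exon below is shown because MBNL transcripts are themselves spliced by MBNL proteins, and a gene count cannot separate the resulting forms. In MBNL1 an exon of 54 bases promotes nuclear localisation of the protein and is repressed by MBNL proteins bound to the intron before it. MBNL2 has an exon of the same length in the same place. Capitals mark the 45 of 54 bases that are identical in both (GRCh37, plus strand, MBNL1 chr3:152164493-152164546 and MBNL2 chr13:98009050-98009103).
MBNL1 exon: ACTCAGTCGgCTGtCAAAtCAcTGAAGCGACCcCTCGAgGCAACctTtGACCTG
MBNL2 exon: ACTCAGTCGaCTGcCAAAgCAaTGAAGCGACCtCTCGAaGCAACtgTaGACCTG

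The 150 bases of intron just before each exon are shown because they carry the motif that MBNL proteins bind. Capitals mark the motif CGCC, or the same letters with T in place of the first C, the last C or both, on the RNA strand only, with overlapping matches counted (GRCh37, plus strand, MBNL1 chr3:152164343-152164492 and MBNL2 chr13:98008900-98009049).
MBNL1 intron: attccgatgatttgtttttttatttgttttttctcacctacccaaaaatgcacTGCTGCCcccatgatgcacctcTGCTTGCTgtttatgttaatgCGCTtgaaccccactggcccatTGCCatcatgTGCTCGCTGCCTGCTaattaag
MBNL2 intron: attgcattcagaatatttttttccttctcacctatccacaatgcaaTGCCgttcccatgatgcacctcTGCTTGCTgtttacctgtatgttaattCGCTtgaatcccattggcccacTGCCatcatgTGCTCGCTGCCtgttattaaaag
The MBNL1 window held 10 matches and the MBNL2 window 8, against a median of 2 in the 150 bases before 261675 exons of protein-coding transcripts other than their first. At least 10 matches occurred in 0.211% of those windows and at least 8 in 0.904%. The 2 introns aligned with 124 identical bases over 160 alignment columns. No window of 76 bases, the read length, within an exon of MBNL1, MBNL2, MBNL3, CELF2, RBFOX2 or QKI occurred a second time in GRCh37. In CELF1 16 of 8854 windows did. Only exact repeats were counted, and exons shorter than 76 bases, introns and exon junctions were not searched.

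Promoters are shown for MBNL2, around which the genes were chosen, and for MBNL1, its most abundant relative. RefSeq (GRCh38.p14) lists 2 starts for MBNL2, both shown, and 3 for MBNL1, of which the one richest in CpG is shown, each given as 250 bases before the start and 50 after it. Promoters were matched by symbol for 5 of the 7 genes, RBFOX2 and QKI being named only. Capitals mark CpG dinucleotides. The windows are chr13:97141584-97141883 (MBNL2 upstream start, plus strand), chr13:97222083-97222382 (MBNL2 downstream start, plus strand) and chr3:152268679-152268978 (MBNL1, plus strand).
MBNL2 upstream: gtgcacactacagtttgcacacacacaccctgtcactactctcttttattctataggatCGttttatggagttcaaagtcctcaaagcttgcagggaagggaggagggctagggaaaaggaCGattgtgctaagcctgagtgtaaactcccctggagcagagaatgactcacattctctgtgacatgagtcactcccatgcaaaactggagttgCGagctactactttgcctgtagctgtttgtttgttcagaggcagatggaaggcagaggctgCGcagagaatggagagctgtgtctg
MBNL2 downstream: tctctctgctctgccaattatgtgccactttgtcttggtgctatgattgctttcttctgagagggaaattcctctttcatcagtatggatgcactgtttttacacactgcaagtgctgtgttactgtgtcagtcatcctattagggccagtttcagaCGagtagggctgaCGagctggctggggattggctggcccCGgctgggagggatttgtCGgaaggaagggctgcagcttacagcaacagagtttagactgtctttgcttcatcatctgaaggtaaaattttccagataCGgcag
MBNL1: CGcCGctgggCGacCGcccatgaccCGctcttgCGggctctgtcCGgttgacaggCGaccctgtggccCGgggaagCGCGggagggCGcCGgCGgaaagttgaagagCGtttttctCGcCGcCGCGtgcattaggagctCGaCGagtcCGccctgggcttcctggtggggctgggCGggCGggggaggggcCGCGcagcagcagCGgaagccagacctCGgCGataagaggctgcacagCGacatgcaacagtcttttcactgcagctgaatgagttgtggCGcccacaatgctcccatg
The MBNL2 windows held 4 CpG upstream and 5 downstream, and the MBNL1 window, picked for its CpG, held 31, while those of its other starts held 19 and 5, against a median of 14 over 35116 RefSeq promoter windows, of which 33.7% held at most 5. TGACTCA, a motif of AP-1 factors searched on both strands after the sequence had been read, occurred 2 times in the upstream MBNL2 window. One or more occurred in 4.95% of all windows and 2 or more in 0.222%. The downstream MBNL2 window held 2 CCAAT motifs, and 10.8% of all windows held 2 or more. This MBNL1 window held 4 GGGCGG motifs, those of its other starts held 0, and 26.7% of all windows held 2 or more (both strands, chosen in the same way). By sequence match to GRCh37 the upstream MBNL2 start lies outside the span in which the authors counted MBNL2, so first exons used only from there were not counted. An upstream start of MBNL3 and several of CELF2 also lay outside the spans counted for those genes.

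The ILF2 shRNA libraries held 63459322 and 71359863 counted fragments, and the non-silencing libraries 72977082 and 71389341. ILF2 itself had 107 and 114 CPM (counts per 1000000 TMM-scaled fragments) in ILF2 shRNA cells, against 717 and 733 CPM in non-silencing cells, a log2 fold change of -2.71 (SE 0.07). All 9 plasma cell markers were present, 4 of them called higher and 2 (SDC1 and SLAMF7) lower, and their summed level was 14810 to 14930 CPM in ILF2 shRNA cells and 12610 to 12920 CPM in non-silencing cells, of which JCHAIN, the joining chain of antibodies, averaged 7638 CPM in ILF2 shRNA cells and 5766 CPM in non-silencing cells. Summed markers of other cells were low in ILF2 shRNA and non-silencing cells: 0.282 to 0.390 and 0.416 to 0.432 CPM for 5 muscle genes, 5.24 to 5.48 and 4.69 to 5.12 CPM for 5 neuron genes, 0.462 to 0.612 and 0.688 to 0.847 CPM for 4 myeloid genes, 0.130 to 0.204 and 0.0945 to 0.153 CPM for 5 stroma genes. The 4 T cell genes summed to 16.1 to 17.1 CPM in ILF2 shRNA and 7.52 to 8.27 CPM in non-silencing cells, nearly all of it CD3E, while CD3D, CD3G and CD2 had at most 4 fragments in any library. The 4 epithelial genes summed to 30.2 to 30.4 and 24.3 to 25.3 CPM, mostly KRT18, with EPCAM at 0. Mitochondrial genes took 0.516% and 0.463% of fragments in ILF2 shRNA cells and 0.351% and 0.307% in non-silencing cells. The part of these differences in the results was not tested.

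MBNL2 rose, MBNL3 and RBFOX2 fell, and the other 4 genes did not pass the test. In edgeR's quasi-likelihood test over all genes (adjusted p under 0.05), 1 of the 7 was called higher and 2 lower. Of all 19142 tested genes 20.3% were called, 10.2% higher and 10.1% lower. Among the 13085 protein-coding genes of these, 24.7% were called in either direction. Because the 7 genes were chosen with this contrast known, nothing is read from the number of them called. The CPM of the ILF2 shRNA and non-silencing libraries did not overlap for 5 of the 7, as for 56.5% of all tested genes. The median log2 fold change was -0.02 over the 7 genes and 0.00 over all tested genes.

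**Figure D1:**
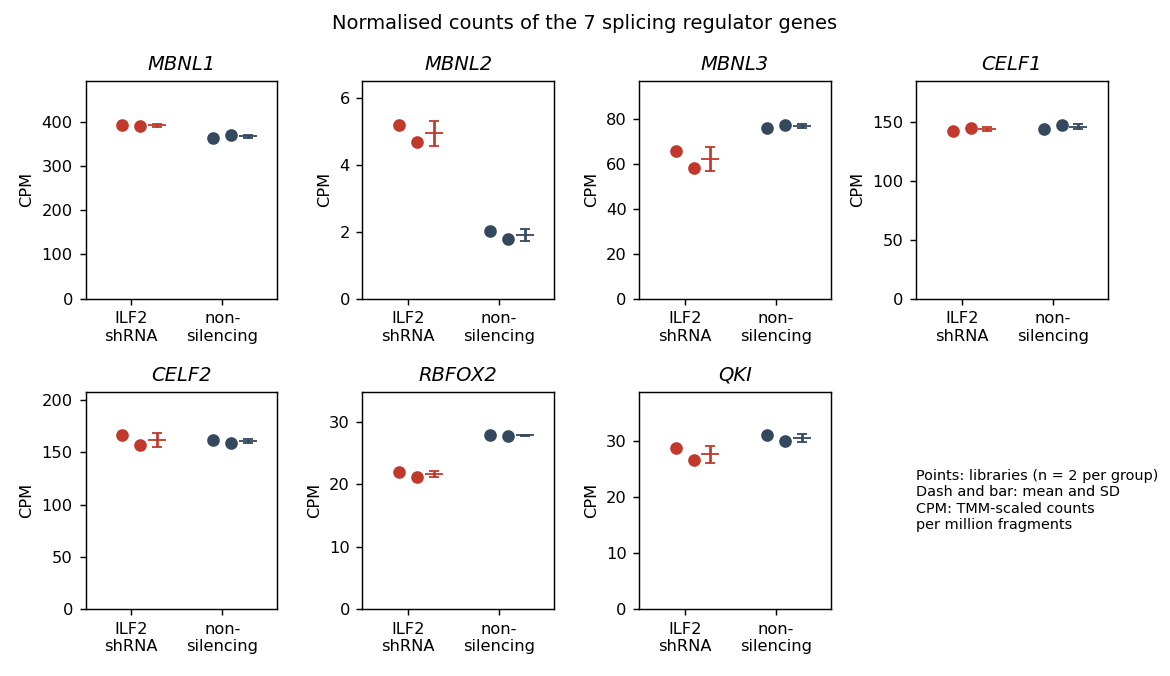
Normalised counts (CPM, vertical axes from 0) of each gene in the ILF2 shRNA libraries (left) and the non-silencing libraries (right); points are libraries, dashes and bars are mean and SD, n = 2 per group. MBNL2 lies near 5 CPM in ILF2 shRNA cells and near 2 in non-silencing cells, MBNL3 and RBFOX2 are lower in ILF2 shRNA cells, and CELF1 and CELF2 overlap.

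MBNL2 (ENSG00000139793, GRCh37 chr13:97873688-98046374, plus strand) encodes the MBNL protein known for its role in brain splicing. It had 332 and 324 fragments in ILF2 shRNA cells, against 151 and 129 in non-silencing cells. This was 5.21 and 4.68 CPM with ILF2 shRNA and 2.04 and 1.79 CPM with non-silencing shRNA. Both ILF2 shRNA libraries lay above both non-silencing libraries, as the choice of genes around this rise implies. The 95% counting intervals were 4.66 to 5.80 and 4.19 to 5.22 CPM in ILF2 shRNA cells and 1.73 to 2.39 and 1.495 to 2.127 CPM in non-silencing cells (exact Poisson, covering counting error only). Its log2 fold change was 1.37 (SE 0.14), or 2.58-fold. It ran from 1.28 to 1.46 over the 13 alternative analyses. MBNL2 is the smallest of the 7 signals, and counting alone gives an error of 8.14% and 8.80% in the non-silencing libraries.

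MBNL1 (ENSG00000152601, chr3:151961617-152183569, plus strand), the main MBNL gene of adult skeletal muscle, was the most abundant. It had 393 and 389 CPM in ILF2 shRNA cells and 364 and 369 CPM in non-silencing cells. The groups did not overlap, but the difference was small and did not pass the test (log2 fold change 0.09, SE 0.07). It was called only after the correction for GC content and length, where it was 0.11. MBNL1-AS1, the antisense gene that overlaps part of the 15.6% of MBNL1 exon bases covered from the other strand, had 0.706 and 0.520 CPM in ILF2 shRNA cells and 0.445 and 0.652 CPM in non-silencing cells. These overlap, and counting was by strand.

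MBNL3 (ENSG00000076770, chrX:131503345-131623996, minus strand) encodes an MBNL protein known for holding back muscle differentiation. It had 65.8 and 58.1 CPM in ILF2 shRNA cells, against 76.0 and 77.4 CPM in non-silencing cells. Both ILF2 shRNA libraries were lower than both non-silencing ones, and they also differed from each other more than the non-silencing libraries did. Its fold on the log2 scale was -0.31 (SE 0.07), or -0.22 without ILF2 shRNA replicate 2 and -0.40 without ILF2 shRNA replicate 1.

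The MBNL genes are compared with each other per length, in FPKM (CPM per kilobase of exon). Their sum was 45.8 and 44.7 FPKM in ILF2 shRNA cells and 43.1 and 43.7 FPKM in non-silencing cells. MBNL1 made up 86.5% ± 0.912 of the sum in ILF2 shRNA cells and 84.6% ± 0.0566 in non-silencing cells (SD, n = 2). MBNL2 made up 2.33% and 2.14% in ILF2 shRNA cells and 0.969% and 0.839% in non-silencing cells, so it stayed the rarest of the 3 by far. MBNL3 made up 11.8% and 10.7% in ILF2 shRNA cells and 14.5% in each non-silencing library. The level of MBNL1 was 36.9 and 40.7 times that of MBNL2 in ILF2 shRNA cells and 87.3 and 101 times in non-silencing cells. With 2 libraries per group no exact permutation test of such a ratio can give a p below 0.333, and none was run.

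**Figure D2:**
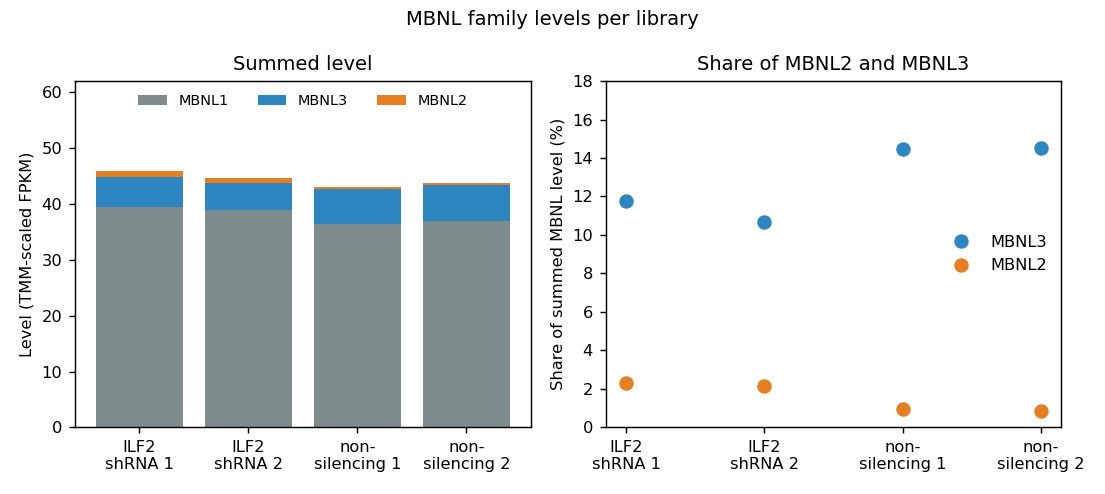
Left, level of MBNL1, MBNL3 and MBNL2 (TMM-scaled FPKM, stacked) in each library, ILF2 shRNA first; right, share of MBNL3 and MBNL2 in that sum (percent). The sums lie between 43.1 and 45.8 FPKM, MBNL2 is above 2% in both ILF2 shRNA libraries and below 1% in both non-silencing libraries, and MBNL3 is lower in the ILF2 shRNA libraries.

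CELF1 (ENSG00000149187, chr11:47487496-47587121, minus strand) encodes a protein that also speeds decay of GU-rich mRNAs. It had 143 and 146 CPM in ILF2 shRNA cells and 145 and 148 CPM in non-silencing cells, and the groups overlapped. CELF2 (ENSG00000048740, chr10:11047259-11378674, plus strand), the CELF gene of lymphocytes, heart and brain, had 166 and 157 CPM in ILF2 shRNA cells and 162 and 159 CPM in non-silencing cells, again with overlap. Their log2 fold changes were -0.02 (SE 0.07) and 0.01 (SE 0.07), and each stayed between -0.04 and 0.05 over the alternative analyses. The sum of MBNL levels was 1.501 ± 0.00141 times the sum of CELF1 and CELF2 levels (per length) in ILF2 shRNA cells and 1.43 ± 0.0127 times in non-silencing cells (SD, n = 2). The 2 ILF2 shRNA ratios, 1.502 and 1.5, lay closer together than counting error there, 0.632% and 0.609% for MBNL1 and 1.05% and 0.996% for CELF1. That SD therefore understates the uncertainty.

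RBFOX2 (ENSG00000100320, chr22:36134783-36424473, minus strand) encodes the RBFOX protein found in most tissues, a regulator of exons in cytoskeletal and adhesion genes. It had 22.0 and 21.2 CPM in ILF2 shRNA cells, against 27.8 and 27.7 CPM in non-silencing cells. The groups did not overlap. The 2 non-silencing libraries lay closer together than their counting error of 2.2% and 2.24%, so their SD understates the uncertainty. The log2 fold change was -0.36 (SE 0.08), so 77.7% of the non-silencing level remained by the fitted ratio of 0.777, and it ran from -0.39 to -0.34 over the alternative analyses. QKI (ENSG00000112531, chr6:163835032-163999628, plus strand), known for myelin genes and for exons that change when epithelial cells become mesenchymal, had 28.8 and 26.6 CPM in ILF2 shRNA cells and 31.1 and 30.1 CPM in non-silencing cells. The groups did not overlap, yet the log2 fold change of -0.14 (SE 0.08) did not pass the test in any of the analyses. It was -0.09 with ILF2 shRNA replicate 2 left out and -0.20 with ILF2 shRNA replicate 1 left out.

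**Figure D3:**
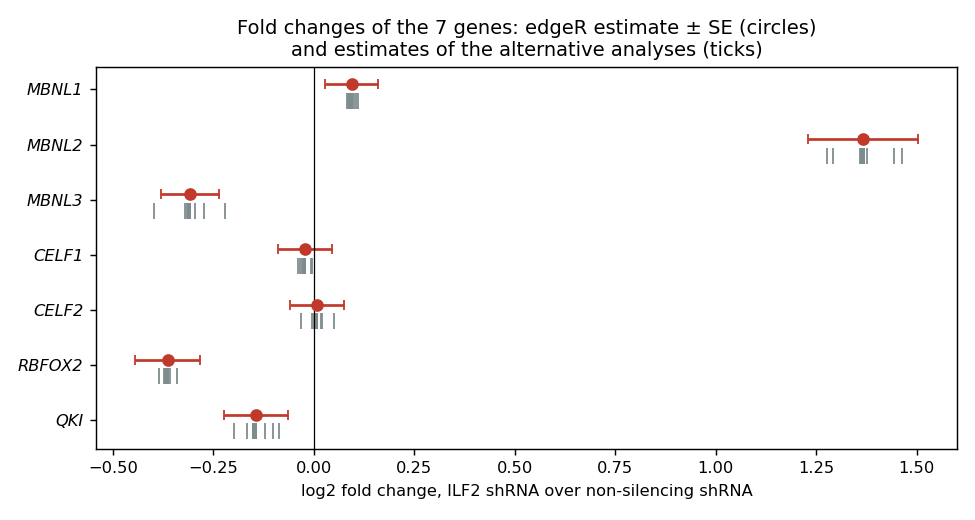
log2 fold change of ILF2 shRNA over non-silencing shRNA for the 7 genes (horizontal axis); circles and bars are the edgeR estimate and its SE, ticks are the 13 alternative analyses. MBNL2 lies between 1.28 and 1.46, MBNL3 and RBFOX2 lie below 0 in each, and the ticks of CELF1, CELF2, QKI and MBNL1 stay between -0.20 and 0.11.

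By length-scaled level the order was MBNL1, CELF2, CELF1, MBNL3, RBFOX2, QKI and MBNL2 in both groups. MBNL1 averaged 39.2 ± 0.276 FPKM in ILF2 shRNA cells and 36.7 ± 0.387 FPKM in non-silencing cells, CELF2 16.3 ± 0.675 and 16.3 ± 0.204 FPKM, and CELF1 13.8 ± 0.176 and 14.02 ± 0.227 FPKM (SD, n = 2 each). MBNL3 averaged 5.08 ± 0.445 FPKM in ILF2 shRNA cells and 6.29 ± 0.0769 FPKM in non-silencing cells. RBFOX2 averaged 2.16 ± 0.0515 and 2.77 ± 0.00474 FPKM, QKI 1.595 ± 0.0894 and 1.76 ± 0.0407 FPKM, and MBNL2 1.01 ± 0.0765 and 0.392 ± 0.0359 FPKM, in the same order of groups. The SD of RBFOX2 in non-silencing cells was below its counting error. No neighbours in this order overlapped within a group. QKI was 1.58 times MBNL2 in ILF2 shRNA cells and 4.50 times in non-silencing cells. The median tested protein-coding gene had 4.47 FPKM in non-silencing cells, so MBNL1, CELF2, CELF1 and MBNL3 lay above it and RBFOX2, QKI and MBNL2 below it. The exon lengths behind these values run from 4884 bases for MBNL2 to 17368 for QKI, against a median of 4888 for tested protein-coding genes. All 7 genes had exons poorer in GC than the 48.4% median, from 37.1% in MBNL2 to 47.3% in CELF1.

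The genes near the 3 called genes are given for context. Within 1 Mb of MBNL2 there were 3 tested genes: RAP2A rose (log2 fold change 0.27), and IPO5 and FARP1 fell (-0.31 and -0.40; edgeR adjusted p = 0.00733, 0.000356 and 0.000152). Of 11 tested genes near MBNL3, 0 were called by edgeR, DESeq2 or limma-voom, and 2 had an unadjusted p under 0.05 in edgeR, with log2 fold changes from -0.53 to 0.24 and a median of -0.10. Near RBFOX2, 7 of 25 were higher and 7 lower in edgeR, against 10.2% and 10.1% of all tested genes, from -1.23 to 1.08, with the median at -0.01. DESeq2 called 11 of the 25 and limma-voom 14, and 16 had an unadjusted p under 0.05 in edgeR. The neighbours of all 3 genes were looked up after the fold changes of the 7 genes had been seen, and nothing is read from these counts.

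**Figure D4:**
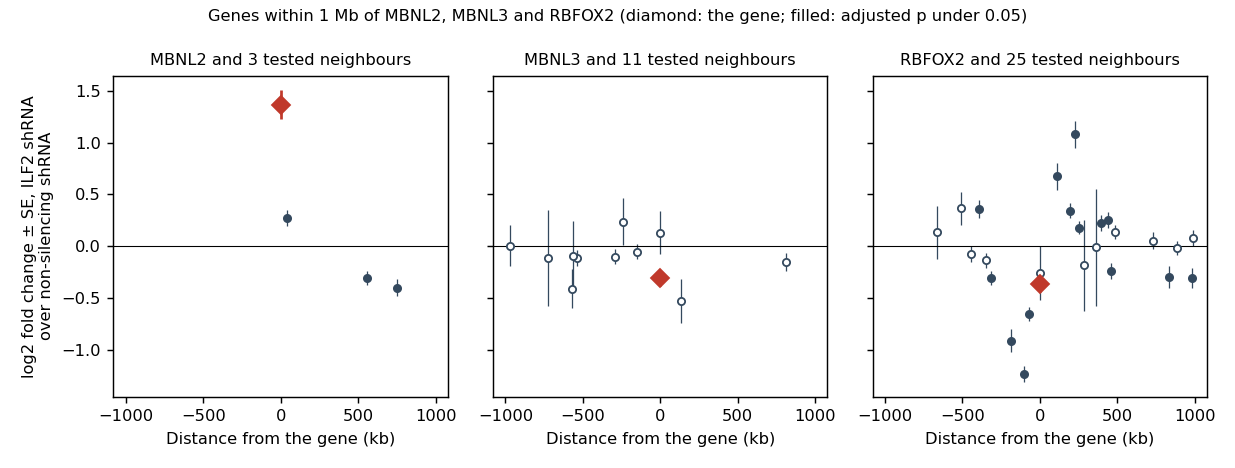
log2 fold change with SE (vertical axis, ILF2 shRNA over non-silencing shRNA) of tested genes within 1 Mb of MBNL2, MBNL3 and RBFOX2 against their distance in kb; diamonds are the 3 genes themselves and filled circles passed an adjusted p of 0.05. The neighbours of MBNL2 lie between -0.40 and 0.27, and those of RBFOX2 lie on both sides of 0.

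The protein-coding genes most like MBNL2 over the 4 libraries were SLC2A12, a sugar transporter gene, GNLY, which encodes the cytotoxic peptide granulysin, the kinase gene CDKL2, the receptor gene FGFR3, and IRAG2. Likeness is the Euclidean distance between centred log2 values, which was 0.0681, 0.0996, 0.147, 0.201 and 0.210 in that order. SLC2A12 had 4.88 and 4.55 CPM in ILF2 shRNA cells and 1.94 and 1.79 CPM in non-silencing cells, close to MBNL2 in level as well. FGFR3 had 337 and 346 CPM in ILF2 shRNA cells and 159 and 143 CPM in non-silencing cells. The 5 genes had log2 fold changes from 1.18 to 1.36, which follows from picking them by this distance over the same libraries.

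Of 6 paralogs of the 7 genes, 2 were tested, and 1 was called higher, against 10.2% of all tested genes. With 2 genes nothing is read from this count. CELF3, CELF6, RBFOX1 and RBFOX3 had at most 9 fragments in any library and were not tested. CELF5, which encodes a CELF protein of brain, had 2.86 and 2.64 CPM in ILF2 shRNA cells and 2.79 and 2.997 CPM in non-silencing cells. CELF4, another CELF gene known from neurons, was the 1 called higher, with 81 and 61 fragments in ILF2 shRNA cells and 36 and 44 in non-silencing cells (log2 fold change 0.97, SE 0.25, edgeR adjusted p = 0.00268). CELF4 did not pass by DESeq2 (adjusted p = 0.0778), nor with ILF2 shRNA replicate 1 (0.102) or non-silencing replicate 1 (0.0613) left out.

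None of the other regulators of alternative splicing passed the test. Of 24 genes 14 were tested, and 0 were called by edgeR, DESeq2 or limma-voom, against 20.3% of all tested genes called by edgeR. In edgeR 2 of the 14 had an unadjusted p under 0.05, against 5924 of all 19142. With so few genes nothing is read from these counts. Their log2 fold changes ran from -0.64 to 0.12, with a median of -0.07. RBM38, a p53-induced RNA-binding protein gene, had 385 and 401 CPM in ILF2 shRNA cells and 437 and 389 CPM in non-silencing cells. PTBP1, the general repressor of neuronal exons, had 336 and 343 CPM in ILF2 shRNA cells and 396 and 360 CPM in non-silencing cells (log2 fold change -0.155, edgeR adjusted p = 0.0933). PTBP1 passed only after the correction for GC content and length (adjusted p = 0.0374), and with non-silencing replicate 1 left out its log2 fold change was -0.086. With ILF2 shRNA replicate 1 left out 1 gene was lower, KHDRBS1, which encodes the STAR protein SAM68 and was looked up for that reason. Epithelial ESRP1 and ESRP2 and neuronal NOVA2, SRRM4 and ELAVL2 to ELAVL4 were among 10 genes that had at most 9 fragments in any library.

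Of the LASR assembly, 6 subunit genes other than ILF2 were compared, HNRNPM, HNRNPH1, HNRNPC, MATR3, HNRNPUL2 and DDX5. By edgeR, DESeq2 and limma-voom 0 of the 6 were called, against 20.3% of all tested genes called by edgeR. In edgeR 0 of the 6 had an unadjusted p under 0.05, against 5924 of all 19142. With so few genes nothing is read from these counts. Their log2 fold changes ran from -0.11 to 0.04, with a median of -0.05. HNRNPH1, which encodes a protein that binds G-rich RNA beside exons, had 616 and 595 CPM in ILF2 shRNA cells and 644 and 666 CPM in non-silencing cells (log2 fold change -0.11, SE 0.07, edgeR adjusted p = 0.243). The groups did not overlap, and the gene passed only after the correction for GC content and length (adjusted p = 0.0417).

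Among 9 repeat-bearing genes and kinases that act on these proteins, 0 were higher and 2 lower, against 10.2% and 10.1% of all tested genes. Their median log2 fold change was -0.03, and 3 had an unadjusted p under 0.05 in edgeR, as did 5924 of all 19142. Nothing is read from these counts. DMPK, the kinase gene whose CUG repeat traps MBNL proteins in myotonic dystrophy type 1, had 6.35 and 6.88 CPM in ILF2 shRNA cells and 8.96 and 8.08 CPM in non-silencing cells (log2 fold change -0.36, SE 0.10, edgeR adjusted p = 0.00727). DMPK did not pass with non-silencing replicate 1 left out (adjusted p = 0.175), with ILF2 shRNA replicate 1 left out (0.064) or by DESeq2 (0.0529). SRC, a tyrosine kinase gene, was at the threshold with 55 and 68 fragments in ILF2 shRNA cells and 114 and 85 in non-silencing cells (log2 fold change -0.56, SE 0.21, edgeR adjusted p = 0.0495). It lost its call in 8 of the 13 alternatives, and leaving out non-silencing replicate 1 brought it to -0.35 (adjusted p = 0.48). With either library that ended the DMPK call left out, the list held 0 falls.

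Genes with exons known as targets of these proteins were read for their total level only. Of 20, 15 were tested, 2 rose and 2 fell, against 20.3% called of all tested genes. In edgeR 7 of the 15 had an unadjusted p under 0.05, against 5924 of all 19142. The median log2 fold change was 0.01, and nothing is read from these counts. ENAH, an actin regulator gene with an exon controlled by RBFOX2 and other factors, had 9.95 and 8.90 CPM in ILF2 shRNA cells, against 15.5 and 16.6 CPM in non-silencing cells (log2 fold change -0.77, SE 0.09, edgeR adjusted p = 2.25e-09). CAMK2G, a calcium-dependent kinase gene, had 36.6 and 39.8 CPM in ILF2 shRNA cells and 27.0 and 27.2 CPM in non-silencing cells (log2 fold change 0.49, SE 0.08, edgeR adjusted p = 1.56e-06). In both genes the groups lay far apart. ECT2, a cytokinesis gene, fell by 0.31 on the log2 scale (edgeR adjusted p = 0.00129), and with non-silencing replicate 2 left out it did not pass (adjusted p = 0.0905). INSR, the insulin receptor gene whose exon is a classic MBNL and CELF target, rose by 0.22 (edgeR adjusted p = 0.0131). INSR did not pass with non-silencing replicate 1 (adjusted p = 0.102), non-silencing replicate 2 (0.322) or ILF2 shRNA replicate 2 (0.0691) left out. The muscle and brain genes TNNT2, CLCN1, LDB3, GRIN1 and MAG had at most 12 fragments in any library.

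**Figure D5:**
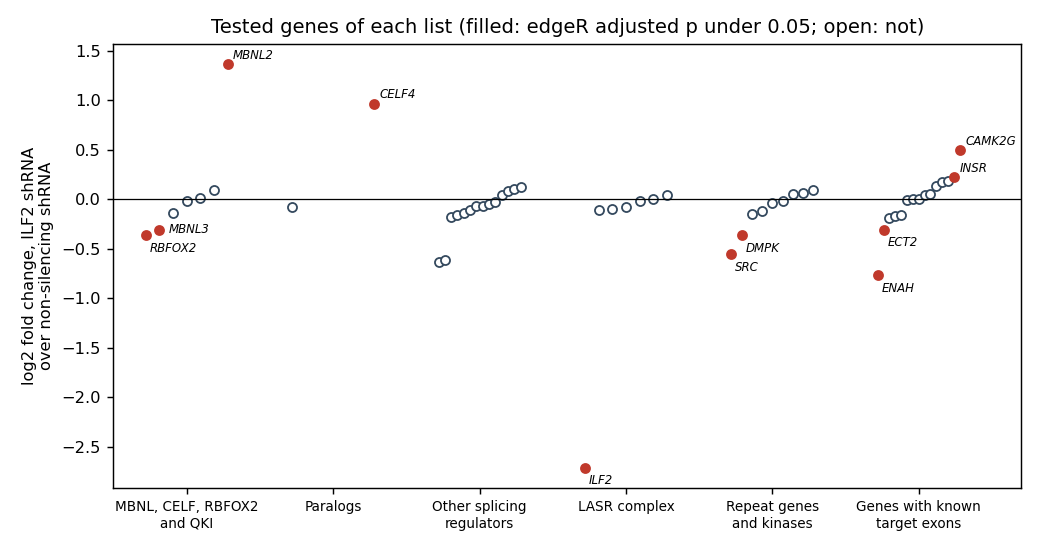
log2 fold change of ILF2 shRNA over non-silencing shRNA (vertical axis) for the tested genes of each list; filled circles passed an edgeR adjusted p of 0.05 and are named, open circles did not. Apart from ILF2, the named genes lie between -0.77 (ENAH) and 1.37 (MBNL2), and none of the other splicing regulators is filled.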

How the data were processed

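RNA sequencing counts of 4 libraries of H929 cells were used, 2 with an ILF2 shRNA and 2 with a non-silencing shRNA. Groups and replicate numbers come from the sample titles. The authors deposited raw counts, 1 per gene, of sequenced fragments, made with featureCounts 1.4.6-p2 (strand setting 2, paired fragments, exons summed by gene, Ensembl release 75 of GRCh37), per the file headers. The aligner is STAR 2.3.0 in the submitters' processing notes, which also list SAMtools 0.1.19, and Tophat2 in the submitters' design text. The headers record no setting for fragments that map to several places; the program's default drops them, and this was assumed.

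Of 63677 gene IDs, 55665 had a symbol by ID in GENCODE's GRCh37 annotation. Counts were compared with edgeR 4.0.16 in R 4.3.3 (TMM scaling, filterByExpr with a minimum count of 10, robust quasi-likelihood test on group, Benjamini-Hochberg adjustment over all 19142 tested genes, threshold 0.05). SE was obtained from the F statistic. CPM are counts per 1000000 TMM-scaled fragments, and FPKM are CPM divided by the length in kilobases of all exons of the gene as the files give it. The 4 libraries leave 2 residual degrees of freedom, and the common biological coefficient of variation was 5.38%. The fit was tested on simulated data.

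The 7 genes and the gene lists were chosen with earlier results of these data known. In the LASR list 1 gene is not reported here. The genes named are the 7, ILF2 and, from each list, up to 6 called genes with the smallest adjusted p, or the most abundant until 2 are named. Added to these are the 5 protein-coding genes closest to MBNL2, by Euclidean distance between log2(CPM + 0.1) values centred over the 4 libraries. Alternatives were DESeq2 1.42.0, limma-voom (limma 3.58.1), DESeq2 size factors, upper-quartile factors, no low-count filter, at least 1 CPM in 2 libraries, leaving out mitochondrial and abundant small RNAs, replicate number as a block, each library left out, and CPM in place of FPKM for levels. A correction for GC content and length (mgcv 1.9.3) was chosen after seeing the data.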

Additional observations from a re-analysis of the deposited data

How the results depend on the processing

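With 1 library left out in turn, 1029 to 1899 genes were higher and 1070 to 1822 lower, against 1960 and 1925 with all 4. Leaving out non-silencing replicate 1 gave 1070 higher and 1073 lower, and leaving out non-silencing replicate 2 gave 1029 higher and 1070 lower, where the lone library is assumed to vary like the other group. DESeq2 called 1261 genes lower, 0 paralogs higher and 0 repeat-bearing or kinase genes lower. With GC and length corrected, a choice made after seeing the data, 3037 genes were higher; the 7 genes then had 2 higher, other regulators 2 higher and 2 lower, LASR genes 2 lower, and genes with target exons 4 higher and 4 lower. The filter of 1 CPM removed CELF4 before testing, which left 0 paralogs higher, and made 1 other regulator lower. Repeat-bearing or kinase genes lower numbered 1 with limma-voom, upper-quartile factors, no filter or the replicate block.

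With each library left out, 0 to 1 paralogs were higher, 0 to 1 other regulators lower, 0 to 2 repeat-bearing or kinase genes lower, 1 to 2 target-exon genes higher and 1 to 3 lower. The log2 fold changes of MBNL2, MBNL3 and RBFOX2 kept their sign in all 13 alternatives. These reuse the libraries in which the genes were chosen, so this is a description and not independent evidence. The sign turned for CELF2 (-0.032 to 0.05 over the 4 fits that each leave out a library, below 0 with non-silencing replicate 2 or ILF2 shRNA replicate 1 left out), RBM38 (-0.152 to 0.012, above 0 with non-silencing replicate 1 left out) and MBNL1-AS1 (-0.096 to 0.454, below 0 with non-silencing replicate 1 or ILF2 shRNA replicate 1 left out), none of them called.

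Same-numbered libraries did not deviate together from their group means (r = -0.0247 across genes), so the numbers were not taken to pair the libraries. With the replicate block 1291 genes were higher and 1 target-exon gene was, INSR no longer passing (adjusted p = 0.12). By CPM without division by length, MBNL1, MBNL2 and MBNL3 made up 85.4%, 1.08% and 13.5% of the MBNL sum in ILF2 shRNA cells and 82.3%, 0.430% and 17.2% in non-silencing cells, and QKI ranked 5 and RBFOX2 6 in both groups. Counting error limits the genes with few fragments, MBNL2, CELF4, SRC and MBNL1-AS1 among them.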
